A study of Homo sapiens with 8 samples.

Results

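A set of 10 genes of an Ewing sarcoma signature was followed here across 2 Ewing sarcoma cell lines, RD-ES and SK-N-MC, and across an enhancer knockdown called eKD2. The genes are PPP1R1A, MYOM2, STEAP2, KCNE3, RBM11, PDE1B, ADRB3, RNF182, ARTN and FEZF1. They are 10 of the 32 genes of the Ewing-specific signature of the study, ESS32, which also holds LOXHD1, and 10 of the 60332 genes in the deposited table. The signature was built on other data sets. Its genes were expressed in Ewing sarcoma and fell when the EWSR1::FLI1 fusion was silenced in lines that included SK-N-MC. Genes expressed above a cutoff in any cell line of another cancer were removed, and those kept had a region bound by the fusion near their start. The 10 were picked from the signature with results of the present libraries known. Values with eKD2 had been seen when they were chosen, so these are given as a description and no test is read from them.

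Each line was infected with a lentivirus carrying dCas9-KRAB, in which a Cas9 made unable to cut is fused to the KRAB repressor domain. The eKD2 cells also carried a guide RNA to sequence next to the GGAA repeat of the LOXHD1 enhancer, not to the repeat itself. The control cells received an empty virus according to the sample labels, and are called parental in the results text of the study. Infection was at a multiplicity of 10, puromycin was given at 1 µg/ml for 3 days, and cells were used within 5 passages. There were 2 control and 2 eKD2 libraries from each line, 8 in all, which the methods of the study call biological duplicates. The labels name no cultures, so p-values measure the spread between these libraries, part of which may be technical. Both lines come from tumours driven by the fusion of EWSR1 with FLI1.

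Ewing sarcoma is a tumour of bone and soft tissue that usually carries a fusion of EWSR1 with FLI1 or another ETS gene. The ETS domain of the fusion binds the motif GGAA, and it can open closed chromatin at runs of consecutive GGAA units, which then act as enhancers for genes that are silent in most other cells. The 10 genes encode proteins of diverse function: a phosphatase inhibitor, a muscle structural protein, a metal reductase, a potassium channel subunit, an RNA-binding protein, a cyclic nucleotide phosphodiesterase, an adrenergic receptor, a ubiquitin ligase, a neurotrophic factor and a transcription factor.

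The repeats are shown first, since the genes of the signature were chosen for a region bound by the fusion within 100 kb of the start, and the fusion binds such repeats. Perfect runs of at least 9 GGAA units, the number in the repeat of the LOXHD1 enhancer, were searched on both strands of GRCh37 within 100 kb of the start of the main transcript of each gene. All 10 genes had one, as against 20.6% of 19881 protein-coding genes and 20.8% of the 12247 of them that were tested here, and this share is given as a description. The sequences below are GRCh37 reference sequence read along the strand on which the unit is GGAA, with 10 bases on either side and with all runs of at least 4 units in capitals. The number of units varies between people and was not measured in these lines.
LOXHD1 (chr18:44187989-44188044, plus strand): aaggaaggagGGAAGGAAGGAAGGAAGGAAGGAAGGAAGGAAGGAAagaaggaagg
PPP1R1A and PDE1B (chr12:55018684-55018819, minus strand): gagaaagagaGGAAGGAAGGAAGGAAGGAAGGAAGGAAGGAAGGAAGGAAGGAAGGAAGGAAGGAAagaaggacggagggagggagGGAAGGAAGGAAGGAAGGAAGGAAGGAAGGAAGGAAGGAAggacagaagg
STEAP2 (chr7:89837657-89837805, plus strand): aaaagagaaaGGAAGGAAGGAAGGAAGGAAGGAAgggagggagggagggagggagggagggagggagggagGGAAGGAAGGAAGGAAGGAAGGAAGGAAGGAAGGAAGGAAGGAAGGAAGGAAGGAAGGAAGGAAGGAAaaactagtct
KCNE3, near (chr11:74179704-74179783, minus strand): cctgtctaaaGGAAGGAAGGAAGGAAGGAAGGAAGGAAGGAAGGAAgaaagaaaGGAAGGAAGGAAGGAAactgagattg
KCNE3, far (chr11:74140604-74140696, minus strand): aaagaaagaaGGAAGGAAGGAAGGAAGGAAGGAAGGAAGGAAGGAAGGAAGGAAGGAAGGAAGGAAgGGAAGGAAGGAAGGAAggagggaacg
RBM11 (chr21:15585603-15585666, minus strand): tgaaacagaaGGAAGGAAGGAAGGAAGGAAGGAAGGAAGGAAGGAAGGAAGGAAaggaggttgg
RNF182 (chr6:13908102-13908197, minus strand): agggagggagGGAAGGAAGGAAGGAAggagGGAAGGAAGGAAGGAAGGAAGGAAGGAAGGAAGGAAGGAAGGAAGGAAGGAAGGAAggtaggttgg
FEZF1 (chr7:121943517-121943660, plus strand): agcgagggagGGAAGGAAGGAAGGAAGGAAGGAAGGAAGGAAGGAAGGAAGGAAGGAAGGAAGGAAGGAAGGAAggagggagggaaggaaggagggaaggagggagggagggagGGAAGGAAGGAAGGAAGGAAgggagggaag

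Among these repeats the longest unbroken run was that of STEAP2, with 17 units, in an intron of the gene 3.26 kb upstream of the start of its main transcript. FEZF1 had 16 units in its own intron, 1.15 kb downstream of its start, and RNF182 had 14 units in intergenic sequence 17.0 kb upstream. KCNE3 had 2 repeats, one of 9 units at 1.12 kb upstream and one of 14 units at 37.9 kb downstream of its start. By the GENCODE start of LOXHD1, its printed repeat lies 49.1 kb downstream, in an intron. The study places that repeat upstream of an alternative start used in Ewing sarcoma cells. A longer run of 15 units lies 67.8 kb upstream of the GENCODE start. Starts in use in these lines were not mapped here, so the distances hold for annotated starts only.

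Of these repeats, 2 lay within 100 kb of 2 signature genes each. PPP1R1A and PDE1B lie side by side on chromosome 12, and the intergenic repeat with runs of 14 and 10 units lies 36.3 kb upstream of PPP1R1A and 75.3 kb downstream of the start of PDE1B. RBM11 and its signature neighbour LIPI, a lipase gene, start on either side of the same run of 11 units, at 2.82 kb and 2.34 kb. PPP1R1A and PDE1B therefore do not count as separate examples of a repeat. The repeats of MYOM2 (11 units in its own intron, 54.7 kb downstream) and of ADRB3 (16 units, 6.21 kb upstream, and 12 units at 90.3 kb) are given without their sequence.

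In the GENCODE annotation of GRCh37 the genes on the plus strand were STEAP2 (ENSG00000157214) at chr7:89796904-89867451, RBM11 (ENSG00000185272) at chr21:15588451-15600693, PDE1B (ENSG00000123360) at chr12:54943385-54973023, RNF182 (ENSG00000180537) at chr6:13924677-13980541, ARTN (ENSG00000117407) at chr1:44398992-44402912 and MYOM2 (ENSG00000036448) at chr8:1993161-2113475. Those on the minus strand were PPP1R1A (ENSG00000135447) at chr12:54969171-54982443, KCNE3 (ENSG00000175538) at chr11:74165886-74178774, FEZF1 (ENSG00000128610) at chr7:121941357-121950745 and ADRB3 (ENSG00000188778) at chr8:37820508-37824117. All 10 are protein-coding.

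**Figure D1:**
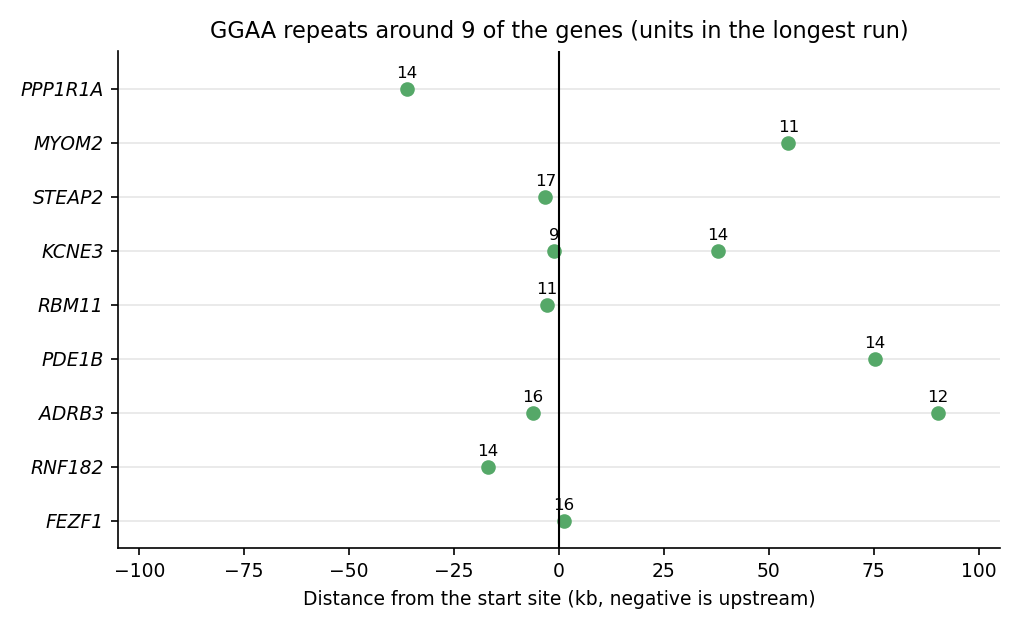
Position of GGAA repeats around the start of 9 of the 10 genes. The x axis is the distance in kb from the start of the main transcript along the gene, each point is a repeat whose longest run has at least 9 units, and the number above it is the units in that run. The nearest repeats of STEAP2, KCNE3, RBM11, ADRB3 and FEZF1 lie within 10 kb of the start, and those of MYOM2 and PDE1B more than 50 kb away.

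The measured values are FPKM, fragments per kilobase of transcript, scaled to library size, as the authors deposited them. Between 722991 and 790863 FPKM were summed over all genes in a library, and the read numbers are not given with the values. Steps in the low values of genes with a single transcript put the depth at roughly 6.70 M reads (M, mega) in RD-ES eKD2 replicate 1, the shallowest library, and 11.7 to 26.8 M in the others. At these depths ARTN in that shallowest library would rest on about 32.9 reads, a counting error of about 17.4%, whereas the lowest library of FEZF1 and ADRB3 would rest on about 156 and 164 reads and the other members on more. All 10 members and LOXHD1 passed the filter of a mean of 1 FPKM over the 8 libraries, as did 15175 genes, and passing did not depend on 1 group.

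LOXHD1, the targeted gene, read 21.4 and 21.2 FPKM in the RD-ES controls against 1.04 and 1.02 FPKM with eKD2. In SK-N-MC the controls read 159 and 169 FPKM, against 11.0 and 12.0 FPKM with eKD2. The groups were far apart in both lines, and its change on the log2(FPKM + 1) scale was -3.46 in RD-ES (adjusted p = 0.000113, limma) and -3.73 in SK-N-MC (adjusted p = 3.71e-05, limma). Of 8 genes that mark Ewing sarcoma, all were expressed, at a summed 969 to 981 FPKM in RD-ES control, 840 to 938 in RD-ES eKD2, 719 to 736 in SK-N-MC control and 696 to 735 FPKM in SK-N-MC eKD2, with CD99 highest at 201 to 586 FPKM. Most of each sum came from CD99, EWSR1 and GLG1. NR0B1 had means of 3.08 FPKM in RD-ES control and 53.1 FPKM in SK-N-MC control, and CD99 had means of 576 and 209 FPKM. Of the markers of other cells, MYOG, DES and GFAP were at or near 0, ALB was at most at a mean of 1.58 FPKM, and PECAM1 was not analysed here. PTPRC, the leukocyte antigen CD45, was at 0 to 0.0173 FPKM in RD-ES but at 19.2 to 22.6 FPKM in SK-N-MC, and EPCAM, an epithelial marker, had means of 0.373 and 0.668 against 4.29 and 3.32. These 2 markers moved with the line, and their part in the line differences below was not tested.

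The levels of the 10 genes spanned more than an order of magnitude in either line. In RD-ES control the order by mean FPKM was PPP1R1A (222), RBM11 (156), KCNE3 (60.8), MYOM2 (46.7), STEAP2 (37.6), RNF182 (28.4), PDE1B (22.5), FEZF1 (12.2), ADRB3 (11.3) and ARTN (6.47). The libraries of FEZF1 and ADRB3 overlapped there, and all other neighbours in this order did not. In SK-N-MC control the order was MYOM2 (324), PPP1R1A (293), RBM11 (160), RNF182 (64.0), KCNE3 (54.1), FEZF1 (41.8), STEAP2 (32.8), PDE1B (24.9), ADRB3 (20.3) and ARTN (13.7), with no overlap between neighbours. PPP1R1A lay above 96.4% and 97.8% of the tested genes in the 2 control groups, whereas ARTN lay near the middle, above 36.3% and 50.1%.

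**Figure D2:**
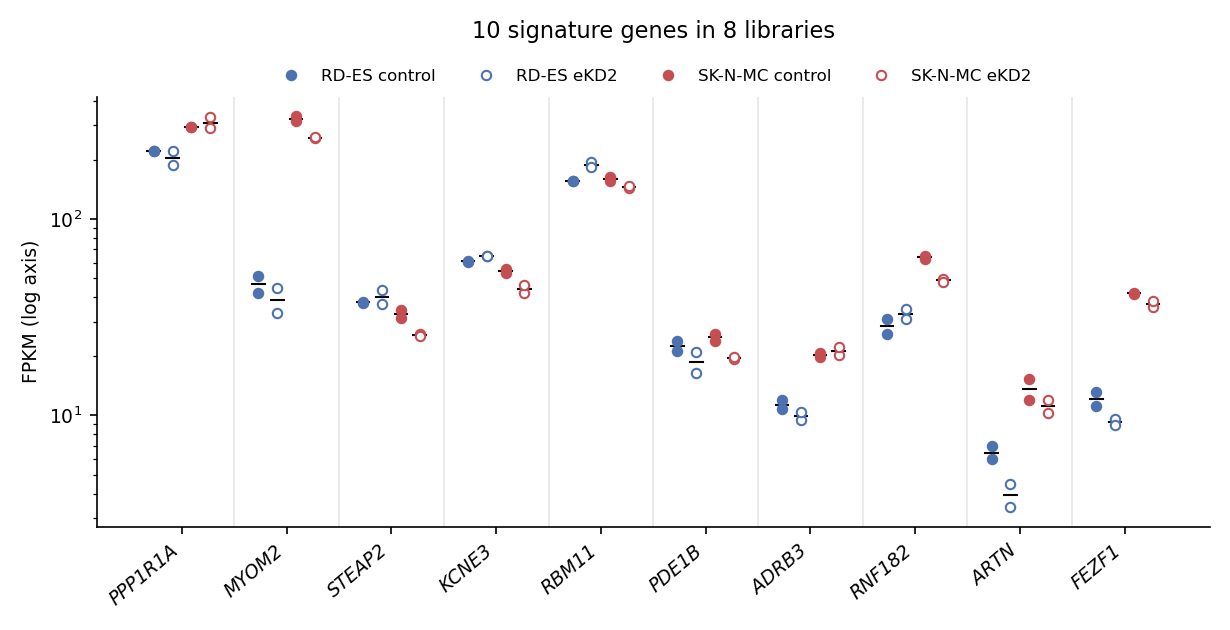
FPKM of the 10 genes in each of the 8 libraries, on a log axis. Filled points are control and open points eKD2 libraries, blue is RD-ES and red is SK-N-MC, and the short black line is the mean of 2 libraries. MYOM2 and FEZF1 show the widest gap between the lines, and the control libraries of STEAP2, KCNE3, RBM11 and PDE1B lie close together, with no difference past the threshold.

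The first comparison asked how far the 10 genes differ between the lines. In control cells 6 of the 10 were higher in SK-N-MC past an adjusted p of 0.05 (limma on all 15175 genes) and none was lower. The background was high, since 57.8% of all tested genes passed, 31.4% higher and 26.4% lower in SK-N-MC. The median difference of the 10 was 0.59 on the log2(FPKM + 1) scale, against 0.065 for all tested genes, and differences of low genes are understated on that scale. Median scaling of the libraries moved the median of all genes from 0.065 to -0.042 and the share of calls that were higher in SK-N-MC from 54.3% to 45.2%. Of the 10, 5 were then higher and 2 lower, since PPP1R1A no longer passed and STEAP2 and KCNE3 did. The control libraries were also part of the eKD2 comparisons known when the 10 were chosen. Entry to the signature also asked for expression and a fall with fusion silencing in SK-N-MC, and did not ask this of RD-ES. The counts and medians can lean toward SK-N-MC by that rule, and its part was not tested. The counts are therefore a description, and the p-values below make no allowance for the choice.

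MYOM2 had the largest difference. It encodes myomesin 2, a protein that crosslinks thick filaments in the M band of striated muscle. It was at 42.0 and 51.4 FPKM in RD-ES control and at 334 and 315 FPKM in SK-N-MC control. All libraries of SK-N-MC lay far above those of RD-ES, with a ratio of means of 6.95 and a log2 difference of 2.78 ± 0.16 (SE, n = 2 against 2 libraries, adjusted p = 4.88e-05, limma). In eKD2 cells it was at 44.5 and 33.1 FPKM in RD-ES and at 258 and 260 FPKM in SK-N-MC, a log2 difference of 2.72.

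FEZF1, a zinc finger transcription factor of the developing forebrain and olfactory system, followed with 11.2 and 13.2 FPKM in RD-ES control and 42.1 and 41.5 FPKM in SK-N-MC control. The log2 difference was 1.70 ± 0.10 (SE, adjusted p = 5.66e-05, limma), and with eKD2, where it was at 9.59 and 8.93 FPKM against 35.4 and 38.1 FPKM, it was 1.88. The groups did not overlap in either condition. FEZF1-AS1 starts within the span of FEZF1 on the other strand, and 782 of the 2942 exonic bases of FEZF1 (26.6%) are also exonic in it. The middle of the GGAA repeat in the FEZF1 intron lies 0.12 kb from the start of FEZF1-AS1 and 1.22 kb from that of FEZF1. FEZF1-AS1 was at means of 25.8 FPKM in RD-ES control and 175 FPKM in SK-N-MC control, a log2 difference of 2.72 (adjusted p = 1.65e-05, limma), and was singled out after its values were seen. The library kit does not mark strand, so reads in the shared bases cannot be assigned to one of the pair.

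RNF182, a membrane-bound ubiquitin ligase, was at 25.8 and 31.0 FPKM in RD-ES control and at 62.9 and 65.1 FPKM in SK-N-MC control, a ratio of 2.25. Its log2 difference was 1.15 ± 0.11 (SE, adjusted p = 0.000302, limma). With eKD2 it was at 34.8 and 30.9 FPKM in RD-ES and at 49.6 and 47.6 FPKM in SK-N-MC, and the log2 difference was 0.55. SK-N-MC was higher in both conditions, by a smaller margin with eKD2.

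ARTN, or artemin, a secreted neurotrophic factor of the GDNF family, was at 5.97 and 6.97 FPKM in RD-ES control and at 11.9 and 15.4 FPKM in SK-N-MC control. The log2 difference was 0.97 ± 0.17 (SE, adjusted p = 0.00396, limma). With eKD2 its values were 3.42 and 4.46 FPKM against 10.3 and 11.9 FPKM, a log2 difference of 1.30. ARTN was the lowest of the 10 genes in every group and the one with the largest SE of the difference.

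ADRB3, the beta-3 adrenergic receptor, which in adipocytes couples catecholamines to cyclic AMP, was at 10.8 and 11.9 FPKM in RD-ES control and at 19.9 and 20.8 FPKM in SK-N-MC control. The log2 difference was 0.79 ± 0.09 (SE, adjusted p = 0.000793, limma). With eKD2 it was at 9.47 and 10.4 FPKM against 20.3 and 22.2 FPKM, a log2 difference of 1.02. The 4 SK-N-MC libraries lay between 19.9 and 22.2 FPKM, the 4 RD-ES libraries between 9.47 and 11.9 FPKM.

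PPP1R1A, inhibitor 1 of protein phosphatase 1, was at 222 and 223 FPKM in RD-ES control and at 293 in both SK-N-MC control libraries. The log2 difference of 0.40 ± 0.10 (SE, adjusted p = 0.0140, limma) was the smallest of those that passed. It lost the threshold when any 1 of the 4 control libraries was left out (adjusted p between 0.0622 and 0.0662) and under median scaling (0.25, adjusted p = 0.0506). PPP1R1A kept the threshold under quantile normalization (0.56, adjusted p = 0.00284, limma) and in a fit of only the 4 control libraries (adjusted p = 0.00504, limma). With eKD2 it was at 188 and 221 FPKM against 289 and 329 FPKM, a log2 difference of 0.60.

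The other 4 genes did not pass in control cells. STEAP2, a metalloreductase that reduces iron and copper, was at 37.8 and 37.3 FPKM in RD-ES and at 34.4 and 31.2 FPKM in SK-N-MC, a log2 difference of -0.19 (95% interval -0.44 to 0.052). KCNE3, an accessory subunit of voltage-gated potassium channels, was at 61.4 and 60.2 against 55.5 and 52.8 FPKM, a log2 difference of -0.16 (-0.34 to 0.0055). Both were lower in each SK-N-MC library, and both passed under median scaling (STEAP2 -0.34, adjusted p = 0.0376; KCNE3 -0.31, adjusted p = 0.00989).

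RBM11, a splicing regulator with an RNA recognition motif, was at 157 and 156 FPKM in RD-ES and at 156 and 164 FPKM in SK-N-MC. Its libraries overlapped, and the log2 difference of 0.036 (-0.11 to 0.18) became -0.11 under median scaling. PDE1B, a calmodulin-dependent phosphodiesterase of cyclic nucleotides, was at 21.2 and 23.8 against 24.0 and 25.9 FPKM, a log2 difference of 0.14 (-0.17 to 0.45). The intervals allow differences of either sign for these 4 genes.

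In the eKD2 libraries 9 of the 10 genes passed, 6 higher and 3 lower in SK-N-MC, where 56.3% of all tested genes passed, 28.2% higher and 28.1% lower. The 6 that were higher were those of the control comparison. Values of these libraries had been seen when the genes were chosen, so nothing is read from these counts. The 3 lower ones were STEAP2 (43.5 and 36.7 against 25.8 and 25.4 FPKM, log2 difference -0.62), KCNE3 (65.0 and 64.8 against 42.1 and 45.8 FPKM, -0.55) and RBM11 (194 and 183 against 144 and 147 FPKM, -0.38). PDE1B, at 16.5 and 20.9 against 19.3 and 19.8 FPKM, overlapped between the lines. Comparing the 2 conditions is the same as comparing the eKD2 changes of the lines, which is described further on.

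**Figure D3:**
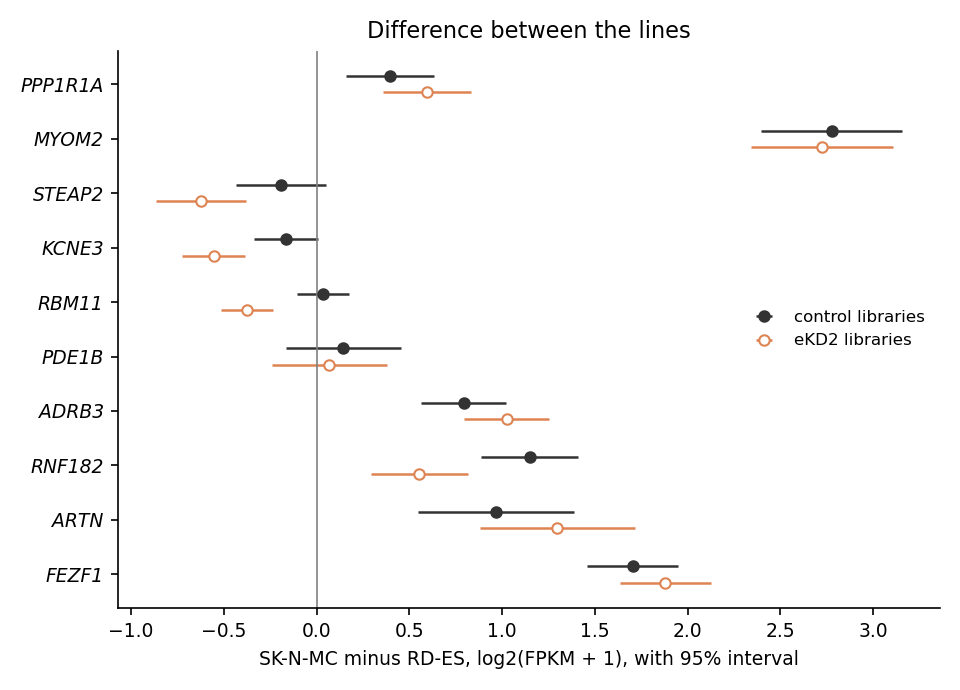
Difference between SK-N-MC and RD-ES for each gene, on the log2(FPKM + 1) scale, with the 95% interval of the limma fit. Filled points are the 4 control libraries and open points the 4 eKD2 libraries, and 0 is no difference. The interval uses 1 spread per gene estimated over all 8 libraries, so its width is the same for both points of a gene. MYOM2 stands farthest right at 2.78 and 2.72, and the open points of STEAP2, KCNE3 and RBM11 lie left of 0.

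With eKD2 none of the 10 genes passed the adjusted threshold in either line, where 0.343% of all tested genes passed in RD-ES (52 genes) and 0.323% in SK-N-MC (49 genes). At an unadjusted p under 0.05 there were 3 of the 10 in RD-ES, ARTN and FEZF1 lower and RBM11 higher, where 12.3% of all tested genes reached it. There were 4 in SK-N-MC, all lower, namely STEAP2, KCNE3, PDE1B and RNF182, where 13.0% of all tested genes did. Since the 10 were chosen with these values known, these counts support nothing. EWSR1, whose promoter drives the fusion, was at 182 and 179 FPKM in the RD-ES controls against 134 and 163 FPKM with eKD2, lower by 17.6% (adjusted p = 0.335, limma). In SK-N-MC it was at 173 and 170 against 134 and 142 FPKM, lower by 19.7% (adjusted p = 0.281, limma). Neither change passed. FLI1, the other partner of the fusion, had means of 23.4 FPKM in RD-ES control and 21.6 FPKM with eKD2. In SK-N-MC its means were 26.3 and 23.7 FPKM. These gene values do not separate the fusion from the intact genes. The part of EWSR1, of FLI1 or of the lower Ewing marker sum in RD-ES in the values of the 10 was not tested.

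In SK-N-MC the eKD2 libraries of 8 of the 10 genes both lay below both control libraries, where 25.1% of all tested genes did so and 22.2% lay above. RNF182 was lower by 24.0%, STEAP2 by 21.9%, PDE1B by 21.6% and MYOM2 by 20.1% of the control mean. KCNE3 and ARTN were both lower by 18.8%, FEZF1 by 12.1% and RBM11 by 9.20%. PPP1R1A and ADRB3 overlapped between the groups. The highest eKD2 and the lowest control library of ARTN were both at 11.9 FPKM, and its change of -0.27 became -0.44 without SK-N-MC control replicate 1 and -0.099 without SK-N-MC control replicate 2. The median of the 10 was -0.28 on the log2(FPKM + 1) scale, against -0.0049 for all tested genes.

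In RD-ES 5 of the 10 genes had both eKD2 libraries below both controls and 2 had both above, where the shares of all tested genes were 15.1% and 24.2%. ARTN was lower by 39.2%, the largest difference of the 10, FEZF1 by 24.0%, PDE1B by 16.8%, ADRB3 by 12.2% and PPP1R1A by 8.08%. RBM11 was higher with a ratio of means of 1.21 and KCNE3 with one of 1.07, and MYOM2, STEAP2 and RNF182 overlapped between the groups. The median of the 10 was -0.15, against 0.031 for all tested genes. The shallowest library, replicate 1, belongs to this eKD2 group. Without it the change on the log2(FPKM + 1) scale was -0.0089 in place of -0.13 for PPP1R1A, -0.096 in place of -0.26 for PDE1B and -0.11 in place of -0.17 for ADRB3. It was -0.48 in place of -0.27 for MYOM2, 0.12 in place of 0.21 for RNF182 and -0.032 in place of 0.088 for STEAP2. For ARTN it was -0.45 in place of -0.60.

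PDE1B, ARTN and FEZF1 thus had both eKD2 libraries below the controls in each line. For ARTN the SK-N-MC groups barely separated, with 11.9277 FPKM in the highest eKD2 library and 11.9312 FPKM in the lowest control. Of all tested genes, 15.1% lay below in the RD-ES comparison and 25.1% in the SK-N-MC comparison. How many lay below in both lines was not counted, so the pattern is not called unusual. PDE1B read 21.2 and 23.8 FPKM in the RD-ES controls against 16.5 and 20.9 FPKM with eKD2, and 24.0 and 25.9 against 19.3 and 19.8 FPKM in SK-N-MC. PDE1B, like FEZF1, shares exonic bases with a more abundant neighbour. It runs tail to tail with PPP1R1A, 443 exonic bases are shared, which is 6.01% of the exonic bases of PDE1B and 11.1% of those of PPP1R1A, and the deposited table gives both the same locus.

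KCNE3 and RBM11 had both eKD2 libraries above both controls in RD-ES and below both in SK-N-MC. Of all tested genes, 24.2% lay above in RD-ES and 25.1% below in SK-N-MC, and the share that did both was not counted. Subtracting the RD-ES value of eKD2 minus control from the SK-N-MC value gave -0.39 for KCNE3 and -0.41 for RBM11, and also -0.60 for RNF182 and -0.43 for STEAP2, whose libraries overlapped in RD-ES. None of the 10 passed the adjusted threshold for this difference, against 0.244% of all tested genes, and 4 had an unadjusted p under 0.05, where 13.5% of all tested genes did. The median difference of the 10 was -0.064.

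**Figure D4:**
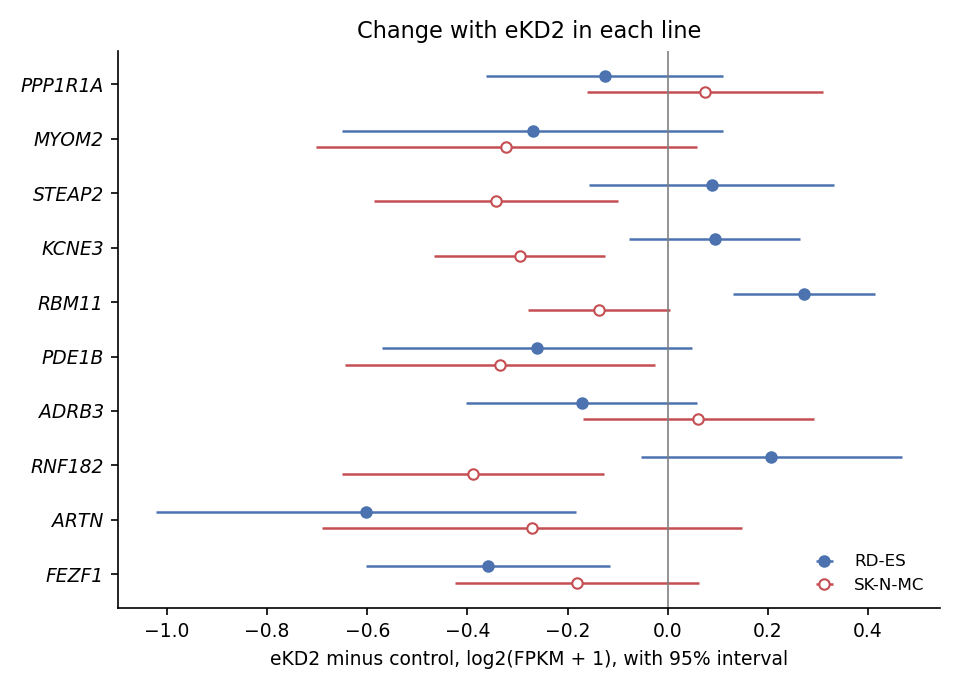
Change with eKD2 for each gene in each line, on the log2(FPKM + 1) scale, with the 95% interval of the limma fit. Filled blue points are RD-ES and open red points SK-N-MC, each a difference of 2 eKD2 and 2 control libraries. The interval uses 1 spread per gene estimated over all 8 libraries, so its width is the same in both lines. All 20 points lie between -0.60 and 0.27, whereas LOXHD1, not drawn, changed by -3.46 and -3.73.

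The 21 other genes of the signature beside the 10 and LOXHD1 had 10 members higher and 6 lower in SK-N-MC control, where 31.4% and 26.4% of all tested genes were. Their median difference was 0.51, against 0.065 for all tested genes. The entry rule that asked for expression in SK-N-MC and not in RD-ES applies to these genes too. The highest were KCNA2 (3.40), a potassium channel, and the neuropeptide Y receptors NPY5R (2.32) and NPY1R (1.98). The lowest were UGT3A2 (-2.19), a glycosyltransferase, VAV1 (-1.89), a guanine nucleotide exchange factor, and LIPI (-1.46). LIPI starts across the shared repeat from RBM11 and was at 62.2 and 56.2 FPKM in RD-ES control against 22.2 and 19.6 FPKM in SK-N-MC control, whereas the RBM11 libraries overlapped between the lines. With eKD2 none of the 21 passed in either line, 12 had a value below 0 in RD-ES (median -0.021) and 15 in SK-N-MC (median -0.20), where 42.0% and 51.1% of all tested genes did, with medians of 0.031 and -0.0049.

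Genes that the 10 are known to work with were examined next, from lists of partners. Counts of these lists between the lines in control cells stand against the 57.8% of all tested genes that passed, 31.4% higher and 26.4% lower in SK-N-MC, and nothing is called particular to a list. For MYOM2, the M-band and thick-filament genes TTN, MYH1, MYH2, MYH7, CKM and MYOM3 were at or near 0 FPKM in all groups, and MYOM1 was under 1 FPKM in every library. Of 11 genes listed for the M band, its partners and the rest of the sarcomere, 4 passed the filter. ACTN2, a protein of the Z disc, was lower in SK-N-MC control (-1.33, adjusted p = 0.000202, limma), and so was SQSTM1, an autophagy receptor (-0.65, adjusted p = 0.00334, limma). NBR1, another autophagy receptor, was higher (1.27, adjusted p = 5.62e-05, limma), and OBSL1, a cytoskeletal adaptor, did not pass (-0.20, adjusted p = 0.214, limma). So MYOM2 was at 324 FPKM in SK-N-MC while 7 of the 11 genes listed with it had a mean under 1 FPKM.

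The co-receptor GFRA3 and the receptor tyrosine kinase RET, through which artemin signals, were also low. GFRA3 was at 0.0461 to 0.711 FPKM in the 8 libraries and RET at 0 to 0.760 FPKM. GFRA2, the co-receptor of neurturin, was at 15.4 to 23.6 FPKM and did not pass between the lines (0.15, adjusted p = 0.339, limma). NCAM1, an adhesion molecule that can also bind ligands of this family, was higher in SK-N-MC control (1.01 against 19.5 FPKM, log2 difference 3.37, adjusted p = 3.29e-05, limma). Of 10 genes listed for the GDNF family, 4 were tested, of which NRTN, NCAM1 and SDC3 were higher in SK-N-MC and none was lower.

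KCNQ1, the channel that KCNE3 holds open in epithelia, was at 0 to 0.0679 FPKM. KCNE4, a sister subunit of KCNE3, was at 12.6 to 14.2 FPKM with no difference past the threshold (0.010, adjusted p = 0.924, limma). KCNQ3 had means of 0.0161 FPKM in RD-ES controls and 12.9 FPKM in SK-N-MC controls, KCNQ5 at 4.17 and 12.1 FPKM, and KCNC4 at 0.988 and 7.37 FPKM. These 3 were higher in SK-N-MC past the threshold and KCNH2 was lower, among 6 tested of 12 channel genes listed, while KCNE3 itself did not pass.

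ADRB3, PDE1B and PPP1R1A all have a part in cyclic AMP signalling. In it the receptor stimulates adenylyl cyclase through GNAS and phosphodiesterases remove the messenger. Protein kinase A phosphorylates inhibitor 1, which then blocks protein phosphatase 1. PDE1B acts on cyclic GMP as well, which the study lists as its preferred substrate. Of 42 genes of this pathway 35 were tested, and 17 were higher and 9 lower in SK-N-MC control, where 57.8% of all tested genes passed. ADRB1, the beta-1 receptor, was at 8.73 to 11.7 FPKM. ADCY5 had means of 0.999 FPKM in RD-ES controls and 23.9 FPKM in SK-N-MC controls (log2 difference 3.65, adjusted p = 7.24e-05, limma).

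Of the phosphatase 1 catalytic genes that PPP1R1A acts on, PPP1CA was lower in SK-N-MC (163 against 83.3 FPKM, adjusted p = 0.000350, limma), PPP1CC was lower (378 against 269 FPKM, adjusted p = 0.00241) and PPP1CB higher (65.2 against 92.4 FPKM, adjusted p = 0.000867). PPP1R1B, the close relative DARPP-32, was at 0.438 against 7.60 FPKM. PDE1A, the relative of PDE1B, was at 1.08 against 5.04 FPKM, and PDE1C was near 0. With eKD2 none of the 35 passed in either line, nor did any gene of the other partner lists.

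STEAP1, a neighbour of STEAP2 on chromosome 7 that lacks part of its reductase, was at means of 62.8 FPKM in RD-ES control and 76.0 FPKM in SK-N-MC control, a log2 difference of 0.27 (adjusted p = 0.0126, limma). STEAP3, the reductase of endosomal iron, was at 3.68 against 0.140 FPKM, and STEAP4 was near 0. STEAP1 and STEAP2 were the most abundant of the 5 family genes measured, STEAP1B being at 2.85 against 0.116 FPKM. Of 11 genes listed for this family and for iron and copper handling, 10 were tested, 3 were higher and 4 lower in SK-N-MC control, against the same 57.8% of all tested genes. Of the paralogs of the remaining genes, RBM7 was lower in SK-N-MC (30.5 against 20.0 FPKM), RNF152, a relative of RNF182, was higher (0.585 against 4.33 FPKM, log2 difference 1.74, adjusted p = 0.000330, limma) and FEZF2 was at 0 in all groups.

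**Figure D5:**
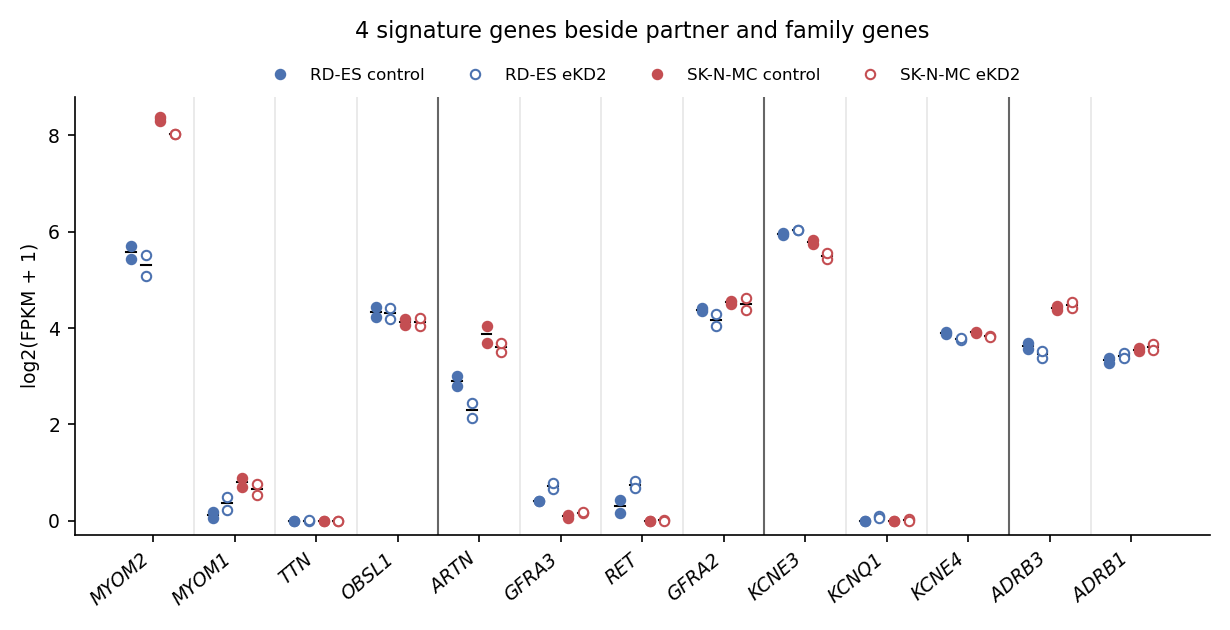
Levels of MYOM2, ARTN, KCNE3 and ADRB3, each followed by partner or family genes, as log2(FPKM + 1) in the 8 libraries. Filled points are control and open points eKD2, blue is RD-ES and red is SK-N-MC, the short line is the mean FPKM of 2 libraries on that scale, and dark lines separate the 4 sets. TTN and KCNQ1 lie at or near 0, and RET and GFRA3 lie under 1, while the gene they partner lies above 2.

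The profile over the 8 libraries was compared with that of every other tested gene by the root mean square difference of mean-centred log2(FPKM + 1). The nearest gene was VPS28 for PPP1R1A (0.030), BCAS2 for STEAP2 (0.031), ZNF740 for KCNE3 (0.032), ANO8 for ADRB3 (0.041), CAMK1D for RBM11 (0.043), KDSR for RNF182 (0.065) and MLX for PDE1B (0.068). Many other genes were nearly as close to some members: 131 genes lay within 0.1 of PPP1R1A and 151 within 0.1 of RBM11. MYOM2 (nearest TMEM71, 0.118), ARTN (EMILIN1, 0.124) and FEZF1 (C19orf73, 0.0997) had at most 1 gene within 0.1.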

How the data were processed

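Single-end reads of 75 bases from poly-A libraries were aligned by the authors with STAR to GRCh37 (hg19), and the deposited FPKM values per gene and library came from Cuffnorm, so no counts were tested. Columns were assigned to samples by their names. For each symbol the row with the highest mean was taken, and the members and gene lists were chosen with earlier results of these data known. Levels were compared as log2(FPKM + 1) for the 15175 of 60332 genes whose mean reached 1 FPKM, with limma 3.58.1 in R 4.3.3 (a means model of 4 groups, eBayes with trend, Benjamini-Hochberg adjustment over all genes tested). The study used DESeq2 on counts, which were not used here. The smallest two-sided p that exact permutation of 2 against 2 libraries allows is 0.333. The fit was tested on simulated data with known changes. Named genes were all members, LOXHD1, the 3 highest and 3 lowest other signature genes, genes of partner lists called between the lines or partnering a member directly, and the nearest profile of each member. Repeats were read with Python from GRCh37 and GENCODE v44 starts, and runs within 100 bases were joined. Alternatives changed the pseudocount, filter, scaling, trend, samples and replicate block. Replicates correlated with r of 0.937 to 0.945. Some genes of the partner lists and 1 repeat are not reported here.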

Additional observations from a re-analysis of the deposited data

Results flagged for a closer look

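KCNE3 and RBM11 were flagged because every eKD2 library lay above both controls in RD-ES and below both controls in SK-N-MC. Of all tested genes, 24.2% lay above in RD-ES and 25.1% below in SK-N-MC. The share that did both was not counted, so the pattern is not called unusual. KCNE3 read 61.4 and 60.2 FPKM in RD-ES controls against 65.0 and 64.8 FPKM with eKD2, and 55.5 and 52.8 against 42.1 and 45.8 FPKM in SK-N-MC. The difference of its change between the lines, SK-N-MC minus RD-ES, was -0.39 on the log2(FPKM + 1) scale (adjusted p = 0.227, limma). RBM11 read 157 and 156 against 194 and 183 FPKM in RD-ES, and 156 and 164 against 144 and 147 FPKM in SK-N-MC, with a difference of -0.41 (adjusted p = 0.169, limma). Neither passed the adjusted threshold, and the genes were chosen with these values known.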

How the results depend on the processing

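Of 580 values of the members under the alternatives, 562 kept their direction and side of the threshold, 5 lost it, 2 gained it and 11 changed sign. The number of members past the threshold stayed within 1.5 times in every comparison. Under median scaling RBM11 between the lines in control became -0.11, and the difference of the eKD2 change became 0.030 for MYOM2 and 0.0064 for PDE1B. When single libraries were left out, the values that changed sign, none of them past the threshold, ranged from -0.0021 (without SK-N-MC control replicate 2) to 0.073 for RBM11 between the lines in control, from -0.094 (without RD-ES eKD2 replicate 1) to 0.23 for PDE1B between the lines with eKD2, from -0.032 (without RD-ES eKD2 replicate 1) to 0.21 for STEAP2 in RD-ES and from -0.018 (without eKD2 replicate 2) to 0.17 for PPP1R1A in SK-N-MC. The difference of the eKD2 change ranged from -0.26 to 0.16 for MYOM2 (positive without RD-ES control replicate 1 or RD-ES eKD2 replicate 1) and from -0.24 to 0.089 for PDE1B (positive without RD-ES control replicate 1 or RD-ES eKD2 replicate 2). The cause was not tested.

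Counts of all genes past the threshold for eKD2 moved more. Without a filter they were 79 in RD-ES, 118 in SK-N-MC and 66 for the difference, with 31445 genes tested. With only the libraries of the comparison they were 1 and 13. The replicate block, with numbers that did not pair the libraries (r = 0.056 and 0.027 over genes within the lines), gave 11, 5 and 7, and no member count changed under it. Leaving out 1 library gave 48 to 76 in SK-N-MC (76 without SK-N-MC eKD2 replicate 1) and 54 to 81 for the difference.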
